A study of Mus musculus with 10 samples.

Results

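The 9 core genes of the hedgehog pathway were examined in bulk RNA-seq of mouse sarcomas. They were the 3 ligand genes Shh, Ihh and Dhh, the receptor and signal-transducer genes Ptch1, Smo and Hhip, and the transcription factor genes Gli1, Gli2 and Gli3, taken by gene symbol from a count table of 56750 features. The tumors fell into 2 groups. In the 3 dFLEx tumors (170019, 170024 and 170025; genotype dFLEx CDS +/-), plasmids coding for the Cre and FLPE recombinases, each driven by a CAG promoter, had been electroporated into hind limb muscle. Together the recombinases turn 2 inverted exons of a Rosa26 knock-in into an HA-tagged CIC::DUX4 fusion gene, the driver of CIC::DUX4 sarcoma, under a CAG promoter. The 2 KP tumors (3800 and 3802) were sarcomas of mice whose genotype includes p53fl/fl, that is floxed p53 alleles, and how they were induced is not given in the sources used here. The comparison holds no untreated muscle and no drug treatment, and the age of the mice at tumor collection is not given. The groups differ in all their alleles at once.

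The RNA of each tumor had been split in duplicate before library preparation, so a tumor, and not a library, is the replicate here, and the duplicates were summed. Libraries held between 20503474 and 46302223 assigned reads. In the table, 9 of the 10 labelled libraries had a column, and KP tumor 3802 was represented by 1 library, the shallowest. The fusion transcript stood at 105, 202 and 423 CPM (reads normalized to library size and scaled by the trimmed mean of M-values, TMM) in dFLEx tumors 170019, 170024 and 170025, at 0 in KP tumor 3800 and at 0.244 CPM in 3802. Reads over 2007 olfactory and vomeronasal receptor genes, which are normally silent outside sensory epithelium, gave a background of 0.0238, 0.0150 and 0.00276 CPM per kilobase in the dFLEx tumors, 0.00624 in 3800 and 0.106 in 3802, so tumor 3802 had the highest background of the 5. Over all 24743 tested genes, edgeR called 45 (25 higher and 20 lower in dFLEx tumors) at an adjusted p under 0.05. The split was 14 higher and 20 lower with library totals in place of TMM, and 17 higher and 33 lower with upper-quartile scaling.

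Hedgehog proteins are secreted, lipid-modified signals. Without ligand, the membrane protein Patched 1 keeps Smoothened inactive, and the Gli factors are processed to repressors or held by Sufu; when ligand binds Patched 1, Smoothened moves into the primary cilium and the Gli factors activate transcription. Ptch1, Gli1 and Hhip are themselves widely used as transcriptional readouts of the pathway, and the first and last of these restrain it. In the limb, hedgehog signals pattern the digits and control growth of cartilage, and in adult muscle hedgehog ligands act on resident mesenchymal and myogenic cells.

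None of the 9 genes was called different between dFLEx and KP tumors. Of the 9, 7 passed the filter on low counts (Hhip through both KP tumors and 1 dFLEx tumor), and 0 of these 7 had an adjusted p under 0.05, where 0.182% of all tested genes did. Of the 7, 1 (Hhip) had an unadjusted p under 0.05, against 10.6% of all tested genes, and DESeq2 on the same tumor sums called 1 of the 7, also Hhip, where it called 6.13% of all tested genes. There were 2 members, Dhh and Gli1, whose lowest dFLEx value lay above the highest KP value, a pattern that 13.7% of all tested genes had, and 1 member, Hhip, was lower in every dFLEx tumor, as were 11.7% of all tested genes. Of the 7 fitted log2 fold changes (dFLEx over KP), 5 were above 0, and the median of the 7 was 1.52 against −0.18 over all tested genes, but it was 0.10 without dFLEx tumor 170025.

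**Figure D1:**
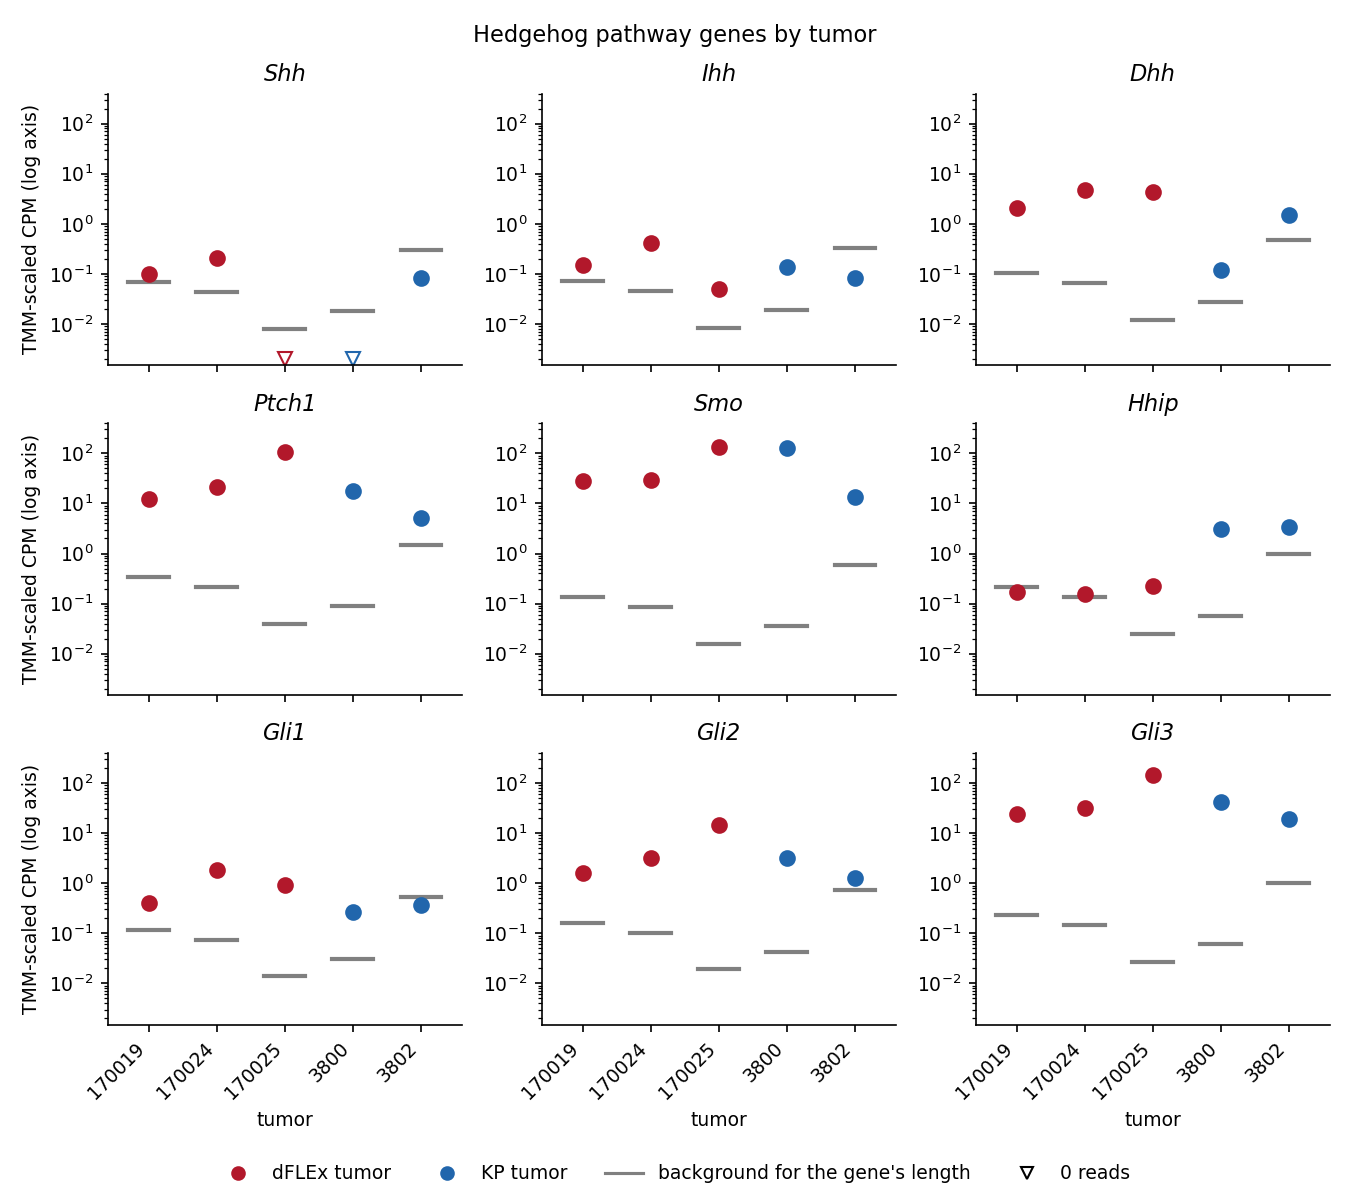
Level of each hedgehog pathway gene in each tumor, as TMM-scaled CPM on a log axis. Filled points are tumors (red dFLEx, blue KP), open triangles at the foot of a panel are tumors with 0 reads, and grey bars give the level that the receptor-gene background would produce over the exon length of the gene; Hhip lies at or near the bar in 170019 and 170024, and Gli1 below it in 3802.

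The 3 genes used most often to read the pathway out are shown with the 300 bases upstream of the start of their Ensembl canonical transcript, because a Gli-bound promoter is the link by which the pathway reaches them. The windows are on the strand of the gene, 5′ to 3′, in GRCm39: chr13:63714093-63714392 (minus strand) for Ptch1, chr10:127177866-127178165 (minus strand) for Gli1 and chr8:80784659-80784958 (minus strand) for Hhip. Capitals mark a match to the Gli consensus GACCACCCA or its reverse complement TGGGTGGTC. The same windows were searched on both strands for TGAATGAA and TGAATGGA, which are octamers bound by CIC, the DNA-binding part of the fusion protein. Other forms of the CIC site were not searched.
Ptch1: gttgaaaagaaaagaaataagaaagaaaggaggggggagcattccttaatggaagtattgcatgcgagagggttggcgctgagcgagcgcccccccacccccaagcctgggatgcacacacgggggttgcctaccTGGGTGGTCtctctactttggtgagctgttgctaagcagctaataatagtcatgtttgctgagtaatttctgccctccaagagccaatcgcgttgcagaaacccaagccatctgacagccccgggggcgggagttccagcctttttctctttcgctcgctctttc
Gli1: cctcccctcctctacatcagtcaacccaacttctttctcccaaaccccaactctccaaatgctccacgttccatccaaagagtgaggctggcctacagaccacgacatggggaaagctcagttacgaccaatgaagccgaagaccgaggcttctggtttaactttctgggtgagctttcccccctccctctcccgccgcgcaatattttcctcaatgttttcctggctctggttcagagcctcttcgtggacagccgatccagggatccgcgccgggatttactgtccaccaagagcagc
Hhip: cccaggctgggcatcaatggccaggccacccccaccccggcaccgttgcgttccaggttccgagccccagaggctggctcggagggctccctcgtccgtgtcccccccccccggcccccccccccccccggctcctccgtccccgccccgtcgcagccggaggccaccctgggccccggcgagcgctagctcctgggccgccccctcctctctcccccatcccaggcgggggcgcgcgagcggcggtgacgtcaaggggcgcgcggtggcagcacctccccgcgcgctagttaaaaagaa

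The Gli consensus occurred once in these windows, in Ptch1, from position −165 to −157 relative to the start, at chr13:63714249-63714257. Of 21770 protein-coding promoters of the same length, 52 (0.239%) held it, and Ptch1 was the 1 hedgehog pathway gene among them. Neither of the searched CIC octamers lay in the 300 bases upstream of any of the 9 genes, whereas 2.54% of all promoters had a match. Within 2000 bases on either side of the start, 4 members (Shh, Dhh, Ptch1 and Smo) held a searched CIC octamer, and 35.3% of all genes did. A match of letters is a description and does not show binding.

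Ligand genes were at very low levels in all tumors, apart from Dhh. Shh, the ligand of limb patterning, had 4, 12 and 0 reads in dFLEx tumors 170019, 170024 and 170025 and 0 and 2 reads in KP tumors 3800 and 3802. All 12 reads of 170024 amounted to 0.208 CPM. The 2 reads of 3802 fell below the receptor-gene background for a gene of this length (ratio 0.268). Ihh, the ligand made by prehypertrophic chondrocytes, had 6, 24 and 4 reads in the dFLEx tumors and 10 and 2 reads in the KP tumors, or 0.149, 0.416 and 0.0504 CPM against 0.134 and 0.0813 CPM. The groups overlapped for both genes. Neither passed the filter, and no fold change is given for them. The 8 markers of hypertrophic chondrocytes and osteoblasts summed to 810, 1040 and 250 CPM in the dFLEx tumors and to 69.3 and 34.1 CPM in the KP tumors, with Bglap at 0 in 3800. Mmp13 and Ibsp gave most of the sum in the dFLEx tumors. Runx2 was highest in 3800, at 57.0 CPM against 8.93, 14.8 and 30.2 CPM in the dFLEx tumors. Col10a1 stood at only 0.572, 2.32 and 0.831 CPM in the dFLEx tumors and 0.564 and 0.366 CPM in the KP tumors. Ihh was highest in the same tumor as the sum, 170024, and the part of these markers in the Ihh reads was not tested.

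Dhh, the ligand known from Schwann cells, endothelium and testis, was the most abundant ligand gene in 4 of the 5 tumors. It stood at 2.09, 4.70 and 4.32 CPM in the dFLEx tumors and at 0.121 and 1.50 CPM in KP tumors 3800 and 3802. The dFLEx tumors were all above the KP tumors, but the lowest of them exceeded 3802 by only 1.39-fold. The fitted log2 fold change was 2.22 ± 1.13 (SE, n = 3 and 2 tumors; edgeR adjusted p = 0.596), so Dhh did not pass the test. Its size rested on the KP tumors, which differed from each other more than the groups did: it was 4.93 without 3802 and 1.47 without 3800, with no call either way. Of the exonic bases of Dhh, 25.2% are shared with other annotated genes, among them Rhebl1 on the same strand and Gm49442 on the opposite strand. Reads were counted without strand and those of several genes were dropped. Reads in the shared bases may therefore be missing from the Dhh counts, and its level per kilobase may be understated. A summed level of 8 Schwann cell markers, all 8 above 0 in every tumor, was 112, 160 and 148 CPM in the dFLEx tumors and 90.7 and 65.2 CPM in the KP tumors, and 8 endothelial markers, likewise all above 0, summed to 264, 360 and 616 CPM against 189 and 135 CPM. Both sums were higher in every dFLEx tumor, like Dhh, and their part in the Dhh values was not tested. In bulk tissue, fewer cells of a type and less RNA per cell cannot be told apart.

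The receptor gene Ptch1 varied more between tumors of a group than between the groups. It stood at 12.3, 21.8 and 104 CPM in the dFLEx tumors and at 17.5 and 5.04 CPM in the KP tumors. KP tumor 3800 lay between dFLEx tumors 170019 and 170024, and tumor 170025 was 4.79-fold above the next highest dFLEx tumor. The log2 fold change was 2.03 ± 1.08 (SE, adjusted p = 0.620), and it was 0.60 without 170025 and 3.37 without 3800. The groups thus overlapped for the member that has the Gli consensus in its promoter.

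Smo, which codes for the transducer Smoothened, had the highest level per kilobase of exon of the 9 genes in 5 of 5 tumors. It stood at 28.1, 29.0 and 133 CPM in the dFLEx tumors and at 131 and 13.7 CPM in the KP tumors. The 2 groups covered nearly the same range: 170025 and 3800 were alike and high, and 3802 was the lowest of all. The log2 fold change was −0.19 ± 1.05 (SE, adjusted p = 0.982), and its sign depended on which tumors were used, from −1.33 without 170025 to 2.39 without 3800. The duplicates of 170019 differed 2.07-fold for Smo (31.6 and 15.2 CPM of the library total), where 1.03% of the 10028 genes averaging 10 CPM or more differed at least 2-fold between those libraries.

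Hhip, a membrane-anchored decoy that binds hedgehog ligands, differed most between the groups. It had 7, 9 and 18 reads in dFLEx tumors 170019, 170024 and 170025 and 232 and 85 reads in KP tumors 3800 and 3802, or 0.174, 0.156 and 0.227 CPM (mean 0.186 ± 0.0367 SD, n = 3) against 3.12 and 3.45 CPM (mean 3.29 ± 0.238 SD, n = 2). Every KP tumor was thus above every dFLEx tumor, the lowest KP tumor by 13.8-fold, and the means differed 17.7-fold. The log2 fold change was −4.12 ± 0.84 (SE; edgeR adjusted p = 0.116), which missed the threshold. The fold change stayed between −5.24 and −3.58 across the alternatives, and the adjusted p ranged from 3.47e-14 to 0.567. DESeq2 on the same tumor sums called Hhip (adjusted p = 0.000134), as did edgeR and DESeq2 fits that took each library as an independent sample and so counted split RNA as replication. In 170019 and 170024, Hhip stood at 0.806 and 1.15 times the receptor-gene background for its length, and was not distinguishable from background there. It stood at 9.06 times that background in 170025, at 55.0 times in 3800 and at 3.58 times in 3802, and with the background subtracted the log2 fold change was −5.24 (adjusted p = 0.211).

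The summed level of 8 epithelial markers was, like Hhip, higher in both KP tumors, carried mainly by Krt8 and Krt18, the 2 of the 8 that fell in dFLEx tumors by the edgeR test. For Krt5, Krt14 and Esrp1 the groups overlapped, and each was lower in 3800 than in 170019. The 8 summed to 12.3, 6.26 and 2.14 CPM in the dFLEx tumors and to 340 and 212 CPM in the KP tumors, with all 8 above 0 in each dFLEx tumor and Esrp1 at 0 in 3800. The sum of 8 macrophage markers, all above 0, had the same order of groups, at 1115, 1088 and 946 CPM against 2317 and 4736 CPM. C1qa and Lyz2 carried most of it. For Cd68 and Mrc1 the groups overlapped, and both were highest in dFLEx tumor 170025 (54.9 and 97.5 CPM). The part of either sum in the Hhip values was not tested.

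Among the Gli genes, Gli1 was the scarcest. Gli1 codes for an activator that is itself induced by the pathway, and it stood at 0.398, 1.80 and 0.920 CPM in the dFLEx tumors, from 16, 104 and 73 reads, and at 0.269 and 0.366 CPM in the KP tumors, from 20 and 9 reads. The dFLEx tumors were all above the KP tumors, but 170019 exceeded 3802 by only 1.09-fold, and the level of 3802 was below the receptor-gene background for this length (ratio 0.689). The log2 fold change was 1.72 ± 1.16 (SE, adjusted p = 0.769), and 2.91 with that background subtracted (adjusted p = 0.649). Duplicates of 1 RNA differed for Gli1 by 1.53-fold in 170019, 1.95-fold in 170024 and 1.79-fold in 170025, all more than the 1.09-fold gap between the groups.

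Gli2, the main activator in many tissues, stood at 1.62, 3.23 and 14.5 CPM in the dFLEx tumors and at 3.18 and 1.30 CPM in the KP tumors. Gli3, which acts mainly as a repressor, stood at 24.6, 31.1 and 145.5 CPM in the dFLEx tumors and at 42.3 and 19.6 CPM in the KP tumors, second in level per kilobase only to Smo in 5 of 5 tumors. In both genes KP tumor 3800 lay within the dFLEx range and 3802 just below it, and 170025 stood alone. The log2 fold changes were 1.52 ± 1.05 for Gli2 (SE, adjusted p = 0.774) and 1.12 ± 0.91 for Gli3 (SE, adjusted p = 0.833). Without 170025 they were 0.10 and −0.15.

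**Figure D2:**
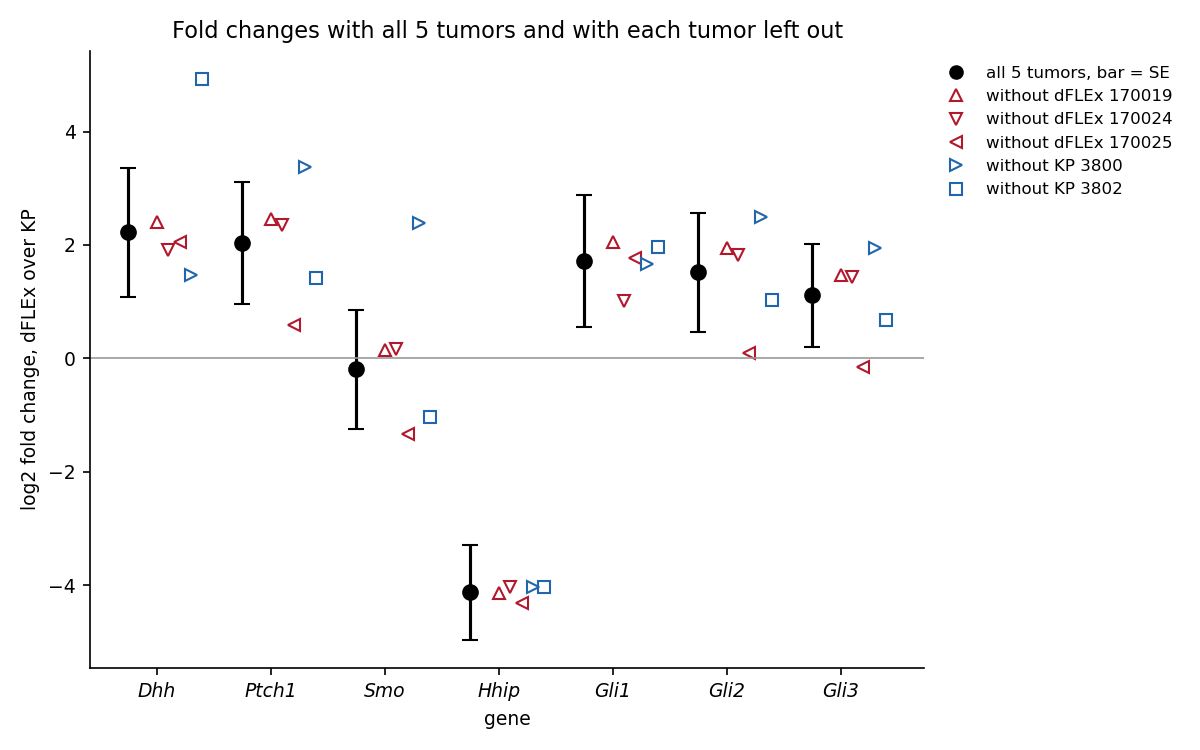
Log2 fold change, dFLEx over KP, of the 7 hedgehog pathway genes that were tested. Black points are the fit to all 5 tumors with its standard error, and open symbols are fits with 1 tumor left out; Hhip stays near −4 in each, whereas the 4 genes Ptch1, Smo, Gli2 and Gli3 move with dFLEx tumor 170025 and KP tumor 3800.

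Among the 9 genes, 4 (Ptch1, Smo, Gli2 and Gli3) stood out in dFLEx tumor 170025, a grouping made after the values were seen and given as a description. There they were 4.79, 4.58, 4.50 and 4.68 times the next highest dFLEx tumor. At least 4-fold elevation in that tumor was seen in 2.78% of all tested genes, and at least 2-fold in 14.8%. Tumor 170025 also had the most fusion transcript and the highest sum of 6 fibroblast markers, 8917 CPM against 2591 and 4951 CPM in the other dFLEx tumors and 2453 and 1655 CPM in the KP tumors, with all 6 above 0 in every tumor. Col1a1 and Col1a2 carried that sum, whereas Dcn and Lum were lower in 170025 than in the other dFLEx tumors. Its chondrocyte sum was also the highest, at 1870 CPM. That sum was 587 and 922 CPM in the other dFLEx tumors and 156 and 172 CPM in the KP tumors. Col2a1 gave 1636 CPM of it in 170025, while Comp, Cnmd and Matn1 were lower there than in the other dFLEx tumors. Sox9 was higher in the KP tumors, at 155 and 132 CPM against 34.5, 61.3 and 68.4 CPM in the dFLEx tumors. The part of these in the 4 genes was not tested. Dhh, Gli1 and Hhip did not have this elevation.

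Ratios between genes within a tumor do not depend on how the tumors were scaled to each other. Gli2 and Gli3 moved most alike over the 5 tumors, with a root mean square difference of 0.28 log2 units between their centred levels, followed by Ptch1 and Gli2 at 0.35 and Ptch1 and Gli3 at 0.54. The ratio of Gli2 to Gli3, per kilobase, was between 0.0917 and 0.145 in all tumors, a 1.58-fold range, although Gli2 itself varied 11.2-fold. In 3802, however, Gli2 stood at only 1.78 times the receptor-gene background for its length, and Gli3 at 19.2 times. The ratios were taken without subtracting background, so the narrow range holds only for unsubtracted levels. In all, 9 within-tumor ratios were computed, chosen after the levels were known and described with no test. The groups did not overlap in 4 of the 9. All 4 contain Ptch1, so they are not independent of each other. How often ratios of other gene pairs are separated in this way was not examined. Among single genes, 13.7% of all tested genes were higher in every dFLEx tumor and 11.7% were lower. The count of 4 is therefore only a description.

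Of those 4, 3 had Ptch1 as numerator and were higher in dFLEx tumors. Ptch1 to Gli2 was 3.67, 3.27 and 3.48 in the dFLEx tumors and 2.66 and 1.88 in the KP tumors. The 1.88 was that of 3802, where Ptch1 and Gli2 stood at 3.34 and 1.78 times the receptor-gene background. Ptch1 to Gli3 was 0.337, 0.473 and 0.484 against 0.279 and 0.174. Ptch1 to Smo was 0.173, 0.297 and 0.311 against 0.0529 and 0.146. In each the gap between the groups was small, with the lowest dFLEx tumor 1.23, 1.21 and 1.18 times the highest KP tumor, and the 3 share the Ptch1 values. The fourth was the ratio of Hhip to Ptch1, 0.0222, 0.0112 and 0.00340 in the dFLEx tumors against 0.279 and 1.07 in the KP tumors. Gli1 set against Ptch1, Gli2 or Gli3 overlapped between the groups, and 170025 had the lowest Gli1 to Ptch1 ratio of all tumors, 0.0251.

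**Figure D3:**
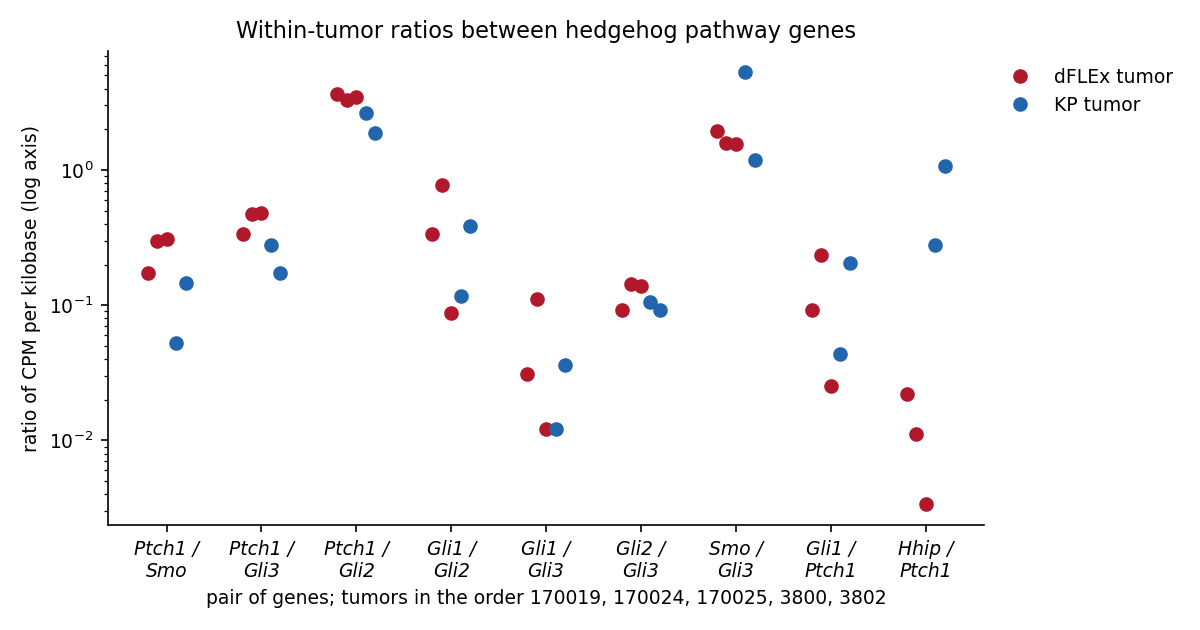
Ratios between hedgehog pathway genes within each tumor, from CPM per kilobase of exon, on a log axis. Red points are dFLEx and blue points KP tumors; the groups are apart in the first 3 ratios and, with a much wider gap, in Hhip over Ptch1.

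Per kilobase of exon, the order of levels was Smo, Gli3 and Ptch1 from the top in 4 of the 5 tumors. In 3802 Hhip (0.381 CPM per kilobase), Ptch1 (0.355) and Dhh (0.342) were close to each other behind Smo and Gli3. Hhip was last in 170019 and 170024, and lay between Gli2 and Gli1 in 3800. Shh was at 0 in 170025 and 3800, where a count of 0 allows up to 3 reads in a library, or at most 0.0837 and 0.103 CPM. Group means of neighbours in the order, such as Smo and Gli3 in the dFLEx group (11.3 and 6.99 CPM per kilobase), were closer than the spread over tumors. Within every tumor Smo was above Gli3, by 1.95-, 1.59- and 1.56-fold in the dFLEx tumors and 5.28- and 1.19-fold in 3800 and 3802. The difference was not tested.

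The genes with the profile most like Gli1, Ptch1 and Hhip over the 5 tumors were sought among 13698 genes that averaged 1 CPM or more and ranged over 1 log2 unit or more, by the root mean square difference of centred log2 levels. For Gli1 they were Myom2 (0.13 log2 units), Pfkm (0.17) and Jph1 (0.17), which code for a sarcomere M-band protein, muscle phosphofructokinase and a protein of muscle membrane junctions. Myom2 stood at 43.1, 184.5 and 76.0 CPM in the dFLEx tumors and at 26.7 and 35.6 CPM in the KP tumors. The sum of 9 myocyte markers, all above 0 in every tumor, was likewise highest in 170024, at 7708, 30610 and 8330 CPM in the dFLEx tumors and 1351 and 4061 CPM in the KP tumors. Acta1, Mylpf and Tnnt3 gave most of that sum. Myog went the other way between the groups, at 6.82, 16.8 and 6.88 CPM in the dFLEx tumors and 112 and 254 CPM in the KP tumors. Pax7 was highest in 3800. The part of these markers in the Gli1 values was not tested. For Ptch1 they were Sec16b (0.16), S1pr3 (0.21) and Ero1a (0.21), all highest in 170025, and for Hhip they were the predicted genes Gm36684 (0.29) and Gm35113 (0.30) and the adhesion molecule gene Alcam (0.33). Alcam stood at 4.40, 3.99 and 6.55 CPM in the dFLEx tumors and 128.4 and 72.2 CPM in the KP tumors. With 5 tumors many genes share a profile: 127 lay within 0.5 log2 units of Gli1 and 142 of Ptch1, but 11 of Hhip.

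**Figure D4:**
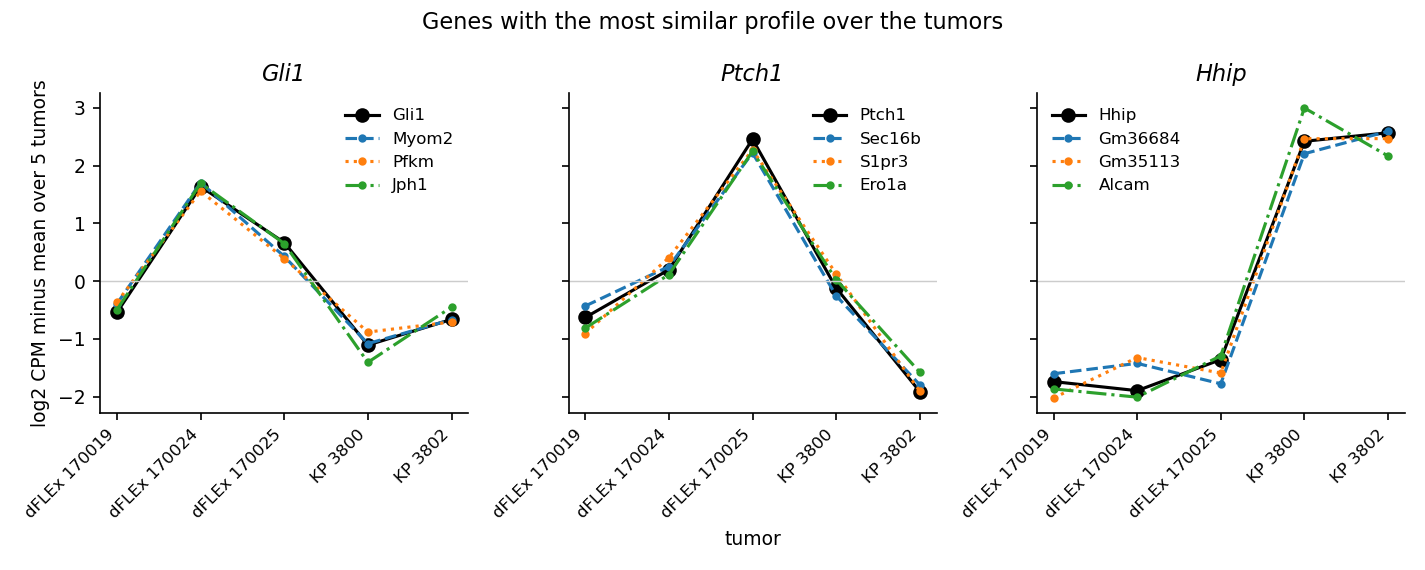
Log2 CPM minus the mean over the 5 tumors, for Gli1, Ptch1 and Hhip (black) and the 3 genes whose profile was most like each (colored). Lines only join the points of a gene; the Gli1 panel peaks in 170024, the Ptch1 panel in 170025, and the Hhip panel is split by group.

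The rest of the pathway was followed in 5 lists of 52 genes in all, 51 of which were tested. Of the 51, edgeR called 1 (0.182% of all tested genes were called), with a median log2 fold change of −0.07 over the 51. In dFLEx tumors, 7 had an unadjusted p under 0.05 and a higher level, and 2 a lower one, where 10.6% of all tested genes passed in either direction. Of the 51, 10 were higher in every dFLEx tumor and 4 lower, against 13.7% and 11.7% of all tested genes.

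The gene called by edgeR was Gpc3, one of 6 receptors and co-receptors other than the members. It codes for glypican-3, a cell-surface proteoglycan that binds hedgehog ligands in competition with Patched. Gpc3 stood at 443.9, 902.7 and 1489 CPM in the dFLEx tumors and at 1.08 and 3.54 CPM in the KP tumors. It rose in dFLEx tumors, to a fitted log2 difference of 8.69 ± 1.11 (SE, adjusted p = 0.0480) with a gap of 125.6-fold between 170019 and 3802. The call sat at the threshold: the adjusted p was 0.0612 with library totals and 0.0720 with upper-quartile scaling. Without 1 tumor it was between 0.0166 (without 3802) and 0.179 (without 170019), and the log2 fold change was between 8.18 and 9.79. Over all alternatives the adjusted p ran from 1.29e-48 to 0.179. The lowest came from DESeq2 with each library as an independent sample, so that split RNA counted as replication. In DESeq2 on tumor sums it was 4.58e-24. The other 5 of the list did not pass in edgeR, with the median of the 6 at 1.08. The lowest value was that of Lrp2, a large endocytic co-receptor, at 0.697, 0.728 and 0.277 CPM in the dFLEx tumors and 4.39 and 4.96 CPM in the KP tumors (log2 fold change −3.04 ± 0.77, edgeR adjusted p = 0.188). DESeq2 on the same tumor sums called 2 of the 6 higher in dFLEx tumors and 1 lower, Lrp2 (adjusted p = 0.00596). It called 6.13% of all tested genes.

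No gene was called among the 6 that process and release the ligands, which had a median log2 fold change of −0.29. Scube2, whose product helps free the lipid-bearing ligand, had the highest value (2.00 ± 1.00, adjusted p = 0.578), and Disp2, a paralog of the ligand exporter Dispatched 1, the lowest (−1.69 ± 0.75, adjusted p = 0.491). No gene was called by edgeR among the 15 cytoplasmic and ciliary regulators either (median −0.07). The extremes were Kif7, the kinesin that organizes Gli proteins at the cilium tip, at 2.46 ± 0.77 (edgeR adjusted p = 0.276) and Prkacb, a catalytic subunit of the kinase that marks Gli proteins for processing, at −0.96 ± 0.67 (edgeR adjusted p = 0.782). DESeq2 on the same tumor sums called 1 of the 15, Kif7 (adjusted p = 0.021), where it called 6.13% of all tested genes. The 12 genes of intraflagellar transport and the cilium, which carry the pathway in mammals, held none that was called and the narrowest spread, from −0.96 for Ift80 (adjusted p = 0.826) to 0.11 for Ift88 (adjusted p = 0.986), with a median of −0.43. These medians turned positive without KP tumor 3800, at 0.64 for ligand processing, 1.16 for the regulators and 0.71 for the cilium genes. That of the regulators was also positive without 170019 (0.25) and without 170024 (0.04).

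Of 14 genes reported elsewhere as Gli targets, 13 were tested and edgeR called 0, a result that depended on the tool. DESeq2 on the same tumor sums called 4 of the 13, all higher in dFLEx tumors, where it called 6.13% of all tested genes. EdgeR with no filter on low counts also called 4 (880 of 44382 genes in all). With the tumor as a random effect, limma-voom called 3 of 12 (543 of 19538 genes in all). Foxa2, a target in the floor plate, had no read in any tumor. Their median log2 fold change was 1.40, against −0.18 over all tested genes, and 6 of the 13 were higher in every dFLEx tumor and 1 (Osr1) lower, where 13.7% and 11.7% of all tested genes were. Of the 13, 4 had an unadjusted p under 0.05 in edgeR, against 10.6% of all tested genes in either direction, all higher in dFLEx tumors: Foxf1, Ccnd2, Mycn and Sfrp1, which were named after their values were seen. The authors count Ccnd2 among the known targets of CIC::DUX4. Foxf1, a forkhead factor of mesenchyme, had the highest value, with 51.0, 29.6 and 70.1 CPM in the dFLEx tumors and 0.403 and 2.11 CPM in the KP tumors (5.34 ± 1.03, edgeR adjusted p = 0.103). For Foxf1 the adjusted p was 7.65e-08 in DESeq2 on the same tumor sums and 0.0138 in limma-voom. In edgeR without 170019 it was 0.243. Nkx2-2 had the lowest log2 fold change, at −1.28 ± 2.09 (adjusted p = 0.927), and had no read in 170025. Most of these genes also respond to other pathways, so the list does not measure Gli activity by itself.

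**Figure D5:**
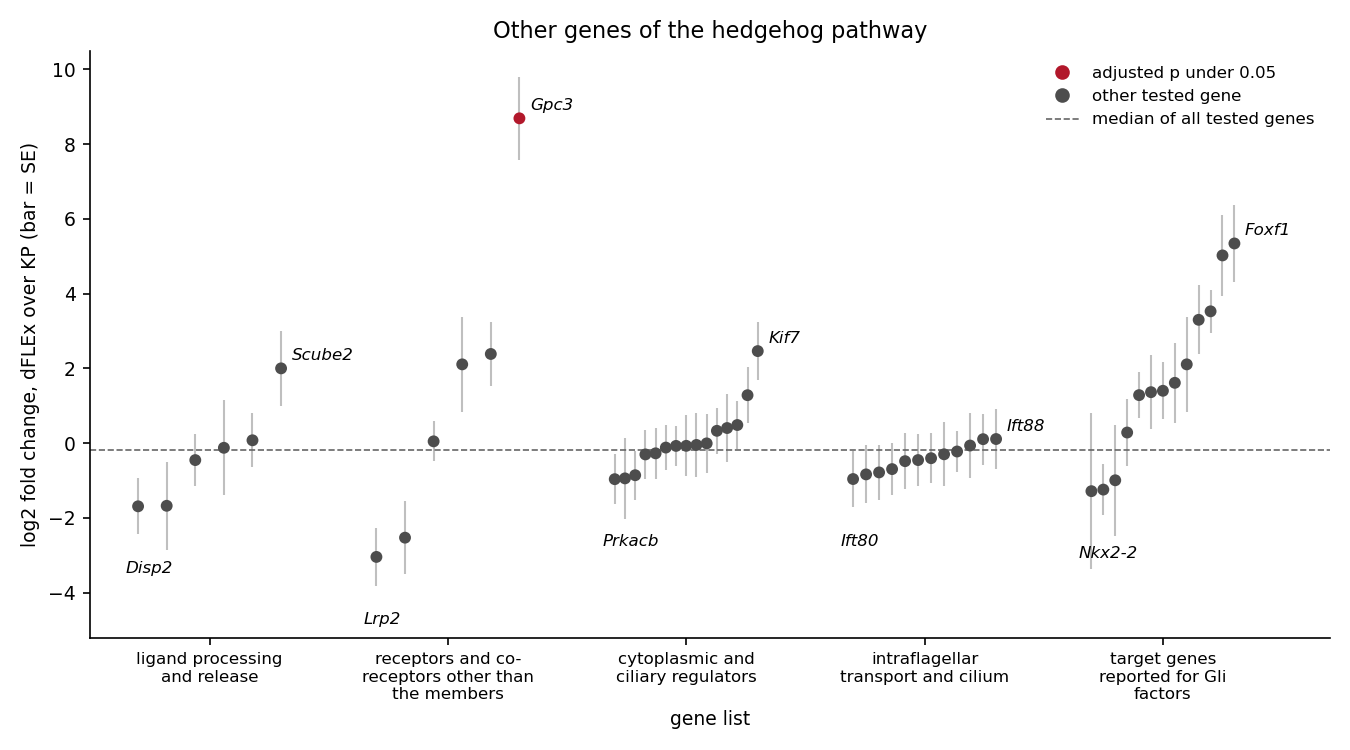
Log2 fold change, dFLEx over KP, with its standard error, of 51 further pathway genes in 5 lists, sorted within each list. Gpc3 is the 1 gene past the threshold in edgeR. The cilium genes lie within 1 log2 unit of 0, and the dashed line is the median of all tested genes. A gene that is on more than 1 list is drawn in each.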

How the data were processed

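Libraries were paired-end and rRNA-depleted. The authors trimmed reads with Trimmomatic 0.39, aligned them with STAR 2.7.10a to mm39 plus a construct contig and counted them with featureCounts (Subread 2.0.3) per gene, and the deposited values are raw counts. Per the file header, mates were counted singly, without strand, and reads of several loci or genes were dropped. The 9 hedgehog genes and the gene lists were chosen with earlier results of these data known. Counts of a tumor's libraries were summed, giving 3 dFLEx and 2 KP tumors; nothing given here says more of how the tumors are related, and p-values measure the spread between them. Tests used edgeR 4.0.16 (filterByExpr, TMM, quasi-likelihood F-test) in R 4.3.3, with Benjamini-Hochberg adjustment over all 24743 genes, and SE was the log2 fold change over the root of F. The test was checked on simulated data. DESeq2 1.42.0, limma 3.58.1 and the other alternatives are given in the closing section. Background was the reads over 2007 receptor genes per exonic base. All members, called genes and extremes of each list were named by rule. Promoters came from GENCODE M39. The second library of KP tumor 3802 was not analysed here. Intervals and limits cover counting error only. Part of the KP genotype is not reported here.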

Additional observations from a re-analysis of the deposited data

How the results depend on the processing

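The number of genes called moved with both the unit of replication and the tool. It was 45 with edgeR on tumor sums, 3344 (edgeR) and 5042 (DESeq2) with libraries as independent samples, 543 with limma-voom and the tumor as a random effect, and 1516 with DESeq2 on tumor sums. It was 880 with no filter on low counts and 80 with a mean of at least 1 CPM, which left Gli1 out. With each tumor left out in turn it ranged from 0 to 414 (without 3802). Hedgehog genes called went from 0 to 1 with libraries in edgeR and with DESeq2 on tumor sums (Hhip) and to 2 with libraries in DESeq2 (Hhip and Dhh), and stayed at 0 with each tumor left out. The duplicate number as a replicate block in the library fit gave 2476 calls, 1 of them a hedgehog gene (Hhip). The numbers pair no tumors: differences between first and second libraries correlated between tumors at −0.04 to 0.12 over genes. The fold change of Smo turned positive with limma-voom (0.029) and without 170019 (0.16), 170024 (0.17) or 3800 (2.39), ranging from −1.33 to 2.39, and that of Gli3 from −0.15 (without 170025) to 1.96 (without 3800). Scaling moved the median of all genes from −0.18 to −0.26 (DESeq2 size factors), −0.34 (upper quartile) and −0.47 (library totals), and no member changed direction under these. A group of 2 KP tumors, 1 of them from a single shallow library with the highest background, limits every comparison.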
